A study of Mus musculus with 72 samples.

Results

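The genes described here carry fatty acids into oxidation in mitochondria and peroxisomes, or are textbook targets of the nuclear receptor PPARA. They were chosen by name: every probe whose symbol is on a list of 34 genes was taken. Earlier results of these data were known when the list was made. The list covered 50 of the 30146 probes in the assay and 34 of its 21400 gene symbols, and 13 of the 34 genes had more than 1 probe. The samples were livers of female B6C3F1 mice, 9 to 11 weeks old at the start and housed singly, that drank water with tertiary butyl alcohol (TBA) at 0, 10, 20 or 40 mg/mL for 14 or 28 d. Each of the 8 groups of dose and duration had 9 animals, and the animals at 0 mg/mL for the same duration were the controls. RNA was measured in slide scrapings of formalin-fixed, paraffin-embedded (FFPE) liver with TempO-Seq, which counts ligated pairs of detector probes in place of sequencing whole transcripts. Levels are counts-per-million (CPM) values after TMM scaling (trimmed means of M-values) of library sizes. A probe's capture efficiency enters its level, so levels were compared between animals for 1 probe and not between genes.

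Fatty acids enter hepatocytes through carriers such as CD36, are bound by FABP1 and are activated to acyl-CoA by ligases such as ACSL1. Long acyl chains cross the inner mitochondrial membrane as carnitine esters, and a spiral of dehydrogenase, hydratase and thiolase steps then shortens them, passing electrons on through the electron transfer flavoprotein. Peroxisomes shorten very long chains by a parallel set of enzymes. PPARA is a fatty acid sensor that, as a dimer with RXR, binds direct repeats in promoters and enhancers and switches on many of these genes in fasting and after exposure to peroxisome proliferators.

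The classical PPARA response element is a direct repeat with a spacer of 1 base, searched here as AGGTCANAGGTCA on either strand of RefSeq promoter windows (300 bases, from 250 before to 50 after a gene's start, build GRCm38.p6). The windows covered 28 of the 34 genes in 30 promoters. A match with at most 2 mismatches lay in 5 of these 30 promoters (16.7%) and in 3.86% of all 32851 promoters in the table. With at most 1 mismatch, 1 member promoter (Fabp1) and 0.554% of all promoters matched, and with none, 0 member promoters and 13 of all promoters did. The 5 matches are shown because the list is defined by PPARA targets, and Acot3, with 3 mismatches, because it rose in the data below. Crat, which also rose, had no window, and the windows of Acsl1, which fell, had 4 and 5 mismatches. Acadm, Hadh, Etfb and Acot2 also had 3 mismatches and did not pass the test below. At most 3 mismatches is a loose limit, met by 24.6% of all promoters. Each is written in the direction of the motif, with the bases that differ from it in capitals.
Fabp1: aggCcataggtca
Cd36: aAgtcagaggCca
Slc25a20: aggtGaaaggtcG
Etfa: aggGcaaaggtAa
Acot4: CggCcaaaggtca
Acot3: aCgGcagaAgtca
The stretch before the gene's start, extended to the end of the match where the match crosses the start, is printed 5′ to 3′ along the gene for the best match (Fabp1, which did not pass the test at any dose) and for Acot3 and Acot4, which lie next to each other on chromosome 12. Capitals mark the match, which in all 3 lies on the strand opposite to the gene.
Fabp1 (chr6:71199629-71199878, plus strand): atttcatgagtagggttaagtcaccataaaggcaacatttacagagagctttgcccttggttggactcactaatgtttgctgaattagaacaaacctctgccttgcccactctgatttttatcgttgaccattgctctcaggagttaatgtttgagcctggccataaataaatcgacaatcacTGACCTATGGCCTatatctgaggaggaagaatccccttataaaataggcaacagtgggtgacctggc
Acot4 (chr12:84038129-84038378, plus strand): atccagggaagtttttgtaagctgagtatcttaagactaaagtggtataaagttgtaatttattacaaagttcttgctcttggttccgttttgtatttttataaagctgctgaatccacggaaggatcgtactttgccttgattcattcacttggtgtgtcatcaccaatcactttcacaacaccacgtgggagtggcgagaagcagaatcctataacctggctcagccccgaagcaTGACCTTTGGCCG
Acot3 (chr12:84051894-84052151, plus strand): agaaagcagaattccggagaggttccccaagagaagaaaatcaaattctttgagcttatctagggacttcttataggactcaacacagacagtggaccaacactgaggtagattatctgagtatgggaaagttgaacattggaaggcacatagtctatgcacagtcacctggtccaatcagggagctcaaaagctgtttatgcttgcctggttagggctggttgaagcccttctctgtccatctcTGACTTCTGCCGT
A match is a description of letters and not of binding, and no binding was measured.

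The 71 libraries used held 7765545 to 12682075 counts. Replicate 5 at 40 mg/mL for 14 d held 10796 counts and was left out, so that group has 8 animals. TMM scaling factors were 0.847 to 0.961 in the 14 d controls and 0.978 to 1.58 at 40 mg/mL for 14 d, and the 11 highest factors fell in 6 of the 8 groups. The liver label was checked against hepatocyte markers, of which 8 were measured. Their summed level was 44352 to 61695 CPM (median 53383) in the 14 d controls and 9828 to 45535 CPM (median 19903) at 40 mg/mL for 14 d, where 5 of the 8 (Alb, Ttr, Apoa1, Serpina1a and Ahsg) were called lower. Of the other cell types' markers, 1 of 7 sinusoidal endothelial genes (Oit3, -0.58) and 1 of 9 stellate cell genes (Reln, -0.71) were called lower there and 1 of 3 red blood cell genes (Hba-a2, 1.56) higher, and 0 of the 10 macrophage, 3 cholangiocyte and 6 lymphocyte genes tested were called. Replicate 3 of the 28 d controls had the lowest sum of its group, 12838 CPM (group median 51176), and its highest factor, 1.37. In bulk liver, fewer cells of a type and less RNA per cell cannot be told apart. Among markers of other tissues that also burn fat, 6 of 7 adipocyte genes had means under 1 CPM over the 71 libraries (Lep and Ucp1 at 0), as were 6 of 7 muscle genes (Mb at 0).

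At 40 mg/mL for 14 d few genes of the list passed the test. Crat and Acot3 rose, Acsl1 fell, and the other 31 genes did not pass the test (edgeR quasi-likelihood, Benjamini-Hochberg adjusted p under 0.05 over all 17050 features tested). The 3 genes make 8.82% of the list, against 6.52% of all features called in the same comparison (2.84% higher and 3.68% lower), so the share was near that of the liver at large. The median log2 fold change was 0.04 for the list and 0.06 for all features. With libraries scaled by total counts alone, 21 of the 34 genes were called higher and 0 lower, and 37.7% of all features were called, whose median moved from 0.06 to 0.54. The split of calls over all features was then 6129 higher and 293 lower, against 484 and 627 on the TMM scale. Changes below are relative to the TMM scale. Among the genes named by rule, Hadhb and Etfa changed sign under the total-count scale. The signs of the remaining genes under that scale are not given here. A linear trend over the 4 doses at 14 d called the same 3 genes, with 7.99% of all features called. The forest plot shows each gene with its interval.

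**Figure D1:**
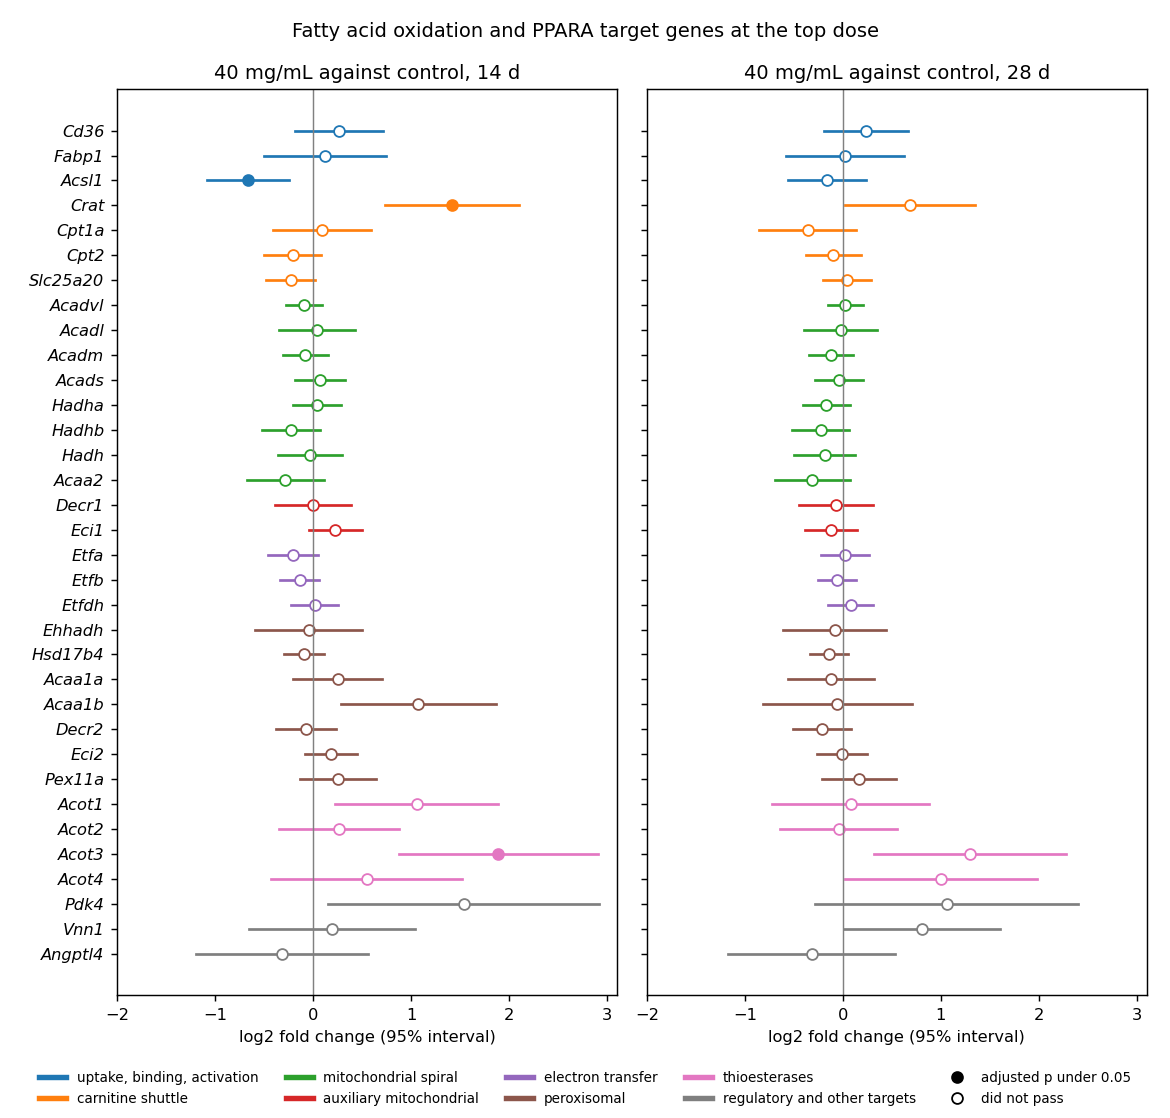
Log2 fold change (point) with its 95% interval (line) of the 34 genes at 40 mg/mL against control at 14 d (left) and 28 d (right), coloured by role, with filled points for an adjusted p under 0.05. Crat and Acot3 lie to the right and Acsl1 to the left at 14 d, and no point is filled at 28 d.

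Of the 3 genes of uptake, binding and activation, 1 passed at 40 mg/mL for 14 d. Acsl1, the main hepatic long-chain acyl-CoA synthetase, had 1681, 1852 and 2429 CPM (lowest, median, highest) in the 14 d controls and 609, 1146 and 2022 CPM at 40 mg/mL. Of the 8 dosed animals 7 lay below every control, and 1 lay within the controls' range. Acsl1 fell by 0.66 on the log2 scale (SE 0.21, adjusted p = 0.0398), and its other probe also passed (log2 fold change -0.57, adjusted p = 0.0199). The direction held without each library in turn, from -0.81 to -0.56, but the adjusted p rose to between 0.05 and 0.111 without any 1 of 10 libraries, which were control replicates 1, 2, 4, 5, 6 and 8 and dosed replicates 1, 7, 8 and 9. Hepatocyte markers were lower in the same group, and their part in the Acsl1 result was not tested. With each library's log2 scaling factor in the model the Acsl1 difference was -0.14 (adjusted p = 0.811, the highest of a range from 0.00962 over the alternatives).

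Cd36, a membrane fatty acid translocase, differed most at the lower doses. Its levels at 14 d were 11.6, 17.1 and 23.3 CPM in controls, 12.7, 28.6 and 45.0 CPM at 10 mg/mL, 11.0, 28.5 and 55.6 CPM at 20 mg/mL and 9.78, 22.1 and 38.2 CPM at 40 mg/mL. At 20 mg/mL 8 of 9 animals lay above every control and the remaining animal, replicate 9, lay below them all. The difference at 20 mg/mL was 0.85 on the log2 scale (SE 0.22) and did not pass over all features (adjusted p = 0.165). It passed in edgeR without replicate 9, and in DESeq2 and limma with all animals. At 10 mg/mL 7 of 9 animals lay above every control, with a log2 fold change of 0.70 (adjusted p = 0.814). At 28 d the Cd36 difference was 0.37, 0.03 and 0.24 at the 3 doses, and the change in its effect at 20 mg/mL between durations was -0.82 (adjusted p = 0.999).

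Fabp1, the abundant cytosolic fatty acid carrier of the liver, had medians between 4493 and 5451 CPM in all 8 groups. Its log2 fold change at 40 mg/mL was 0.12 (95% interval -0.50 to 0.74) at 14 d and 0.03 (-0.58 to 0.63) at 28 d. A few animals stood far below the rest: replicate 9 at 20 mg/mL for 14 d had 144 CPM, replicate 2 at 10 mg/mL for 14 d had 677 CPM and replicate 9 at 40 mg/mL for 14 d had 839 CPM. The lowest 14 d control had 2723 CPM.

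Among the 4 genes of the carnitine shuttle, Crat rose. Crat, which transfers short acyl groups between coenzyme A and carnitine, had 3.81, 6.19 and 9.69 CPM in the 14 d controls and 10.1, 13.5 and 35.2 CPM at 40 mg/mL. All 8 dosed animals lay above every control, which held for 0.0997% of all features in that comparison. The log2 fold change was 1.42 (SE 0.34, 2.67-fold, adjusted p = 0.00559). At 10 mg/mL the levels were 2.86, 5.88 and 19.9 CPM and at 20 mg/mL 6.54, 11.5 and 16.7 CPM, with log2 fold changes of 0.64 and 0.74 that did not pass. The trend over dose was 0.33 per 10 mg/mL (adjusted p = 0.00463). A second tested Crat probe had a log2 fold change of 0.91 that did not pass (adjusted p = 0.0622), with 4 of 8 dosed animals above every control, and a further probe fell below the filter on low counts.

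The Crat difference kept its call without any 1 library (log2 fold change 1.17 to 1.52). Replicate 1 at 40 mg/mL had the highest level, 35.2 CPM, and the scaling factors of replicates 1 and 7 were 1.55 and 1.58. These 2 libraries also had the highest summed level of 5 red blood cell genes in the group, 158 and 180.3 CPM, against 4.52 to 97.8 CPM in the other dosed animals and 15.9 to 41.4 CPM in controls. The part of red blood cell RNA in the Crat and Acot3 results was not tested. Without these 2 libraries together the difference was 1.09 and did not pass (adjusted p = 0.105), over a range of adjusted p under all alternatives of 0.000446 to 0.368. The highest p came with each library's log2 scaling factor in the model, where the Crat difference was 0.56.

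Cpt1a, which loads long chains onto carnitine at the outer membrane and is the usual control point of the pathway, had medians of 11.7, 11.6, 15.2 and 12.5 CPM over the 4 doses at 14 d. Its log2 fold change at 40 mg/mL was 0.09 (95% interval -0.41 to 0.59) at 14 d and -0.36 (-0.85 to 0.14) at 28 d. Cpt2, which releases acyl-CoA inside the matrix, was at -0.21 and -0.10. Slc25a20, the carnitine-acylcarnitine carrier between the 2 transferases, was at -0.23 and 0.04.

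None of the 8 enzymes of the mitochondrial spiral passed. At 40 mg/mL for 14 d their log2 fold changes ran from -0.28 (Acaa2, the matrix thiolase) to 0.07 (Acads, the short-chain dehydrogenase). The count was also 0 in edgeR at an unadjusted p under 0.05 (19.0% of all features), and DESeq2 and limma called none of the 8. The 95% intervals reached no lower than -0.68 (Acaa2) and no higher than 0.43 (Acadl). Acadvl, which starts the spiral on very long chains, had 210, 240 and 276 CPM in the 14 d controls and 169, 224 and 269 CPM at 40 mg/mL. Acadm, the medium-chain dehydrogenase, had 367, 391 and 502 CPM against 322, 357 and 491 CPM. In each pair the groups overlapped. Hadha and Hadhb, the neighbouring genes of the trifunctional protein's alpha and beta subunits, were at 0.04 and -0.22. Hadh, the matrix hydroxyacyl-CoA dehydrogenase, was at -0.03.

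The genes that help the spiral with double bonds and electrons also had small differences. Decr1 and Eci1, the mitochondrial dienoyl-CoA reductase and enoyl-CoA isomerase, were at 0.00 and 0.23 at 40 mg/mL for 14 d. Etfa, Etfb and Etfdh, the 2 flavoprotein subunits and their dehydrogenase, were at -0.20, -0.14 and 0.02. None of these 5 passed in edgeR, DESeq2 or limma, 0 had an unadjusted p under 0.05, and at 28 d their values ran from -0.12 (Eci1) to 0.08 (Etfdh).

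In the peroxisomal group of 7 genes 0 passed in edgeR and limma, and 1 had an unadjusted p under 0.05. That gene was Acaa1b, a peroxisomal thiolase, with 4.01, 4.79 and 7.59 CPM in the 14 d controls and 1.74, 9.51 and 22.5 CPM at 40 mg/mL. Of the dosed animals 4 of 8 lay above every control and 1 below them all. Its log2 fold change was 1.07 (SE 0.40, adjusted p = 0.0915), and DESeq2 called it higher. Its near copy Acaa1a was at 0.25. Of the 50-base windows of the longest Acaa1b transcript, 35.5% also occur in Acaa1a, so how reads were divided between them is uncertain. Ehhadh, the peroxisomal bifunctional enzyme and a widely used PPARA marker, had 406, 480 and 1108 CPM in the 14 d controls and 199, 593 and 752 CPM at 40 mg/mL, a log2 fold change of -0.04 (95% interval -0.59 to 0.50). Hsd17b4, the bifunctional enzyme of the other stereochemistry, was at -0.09. Pex11a, a peroxisome division factor, was at 0.25, Decr2 at -0.07 and Eci2 at 0.18.

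The acyl-CoA thioesterases, which split acyl-CoA into free fatty acid and coenzyme A, held the largest difference of the list. Acot3, a peroxisomal member, had 7.95, 31.5 and 64.5 CPM in the 14 d controls and 37.4, 93.1 and 203 CPM at 40 mg/mL. Of the 8 dosed animals 6 lay above every control. The log2 fold change was 1.89 (SE 0.51, 3.71-fold, adjusted p = 0.0142). At the lower doses the values were 1.90 at 10 mg/mL (28.6, 54.3 and 484 CPM) and 1.62 at 20 mg/mL (31.6, 110 and 160 CPM). Acot3 did not pass at either dose (adjusted p = 0.412 and 0.459), and 3 and 5 of 9 animals lay above every control. The value at 10 mg/mL depended on single animals: with 1 library left out it ran from 1.14 to 2.12. At 20 mg/mL it then ran from 1.49 to 1.84. The median at 10 mg/mL, 54.3 CPM, was also below the 93.1 CPM at 40 mg/mL. The second Acot3 probe read 2.01 at 40 mg/mL (adjusted p = 0.0565). The Acot3 call held without any 1 library (1.71 to 2.11). It was lost without replicates 1 and 7, at a log2 fold change of 1.88 (adjusted p = 0.0539, range over alternatives 0.000912 to 0.0590).

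Acot1, the cytosolic thioesterase, had 20.2, 40.5 and 115 CPM in the 14 d controls, 44.3, 87.7 and 379 CPM at 10 mg/mL, 17.7, 70.0 and 139 CPM at 20 mg/mL and 28.0, 103 and 172 CPM at 40 mg/mL. The groups overlapped at every dose. Its log2 fold changes were 1.24, 0.50 and 1.06, none of which passed (adjusted p = 0.828, 0.942 and 0.122). The mitochondrial Acot2 was at 0.27 and the peroxisomal Acot4 at 0.55 at 40 mg/mL. The 4 genes are neighbours, and 23.7% of the 50-base windows of Acot1 occur in Acot2 and 7.69% in Acot3, so values within this family may be mixed by the counting.

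**Figure D2:**
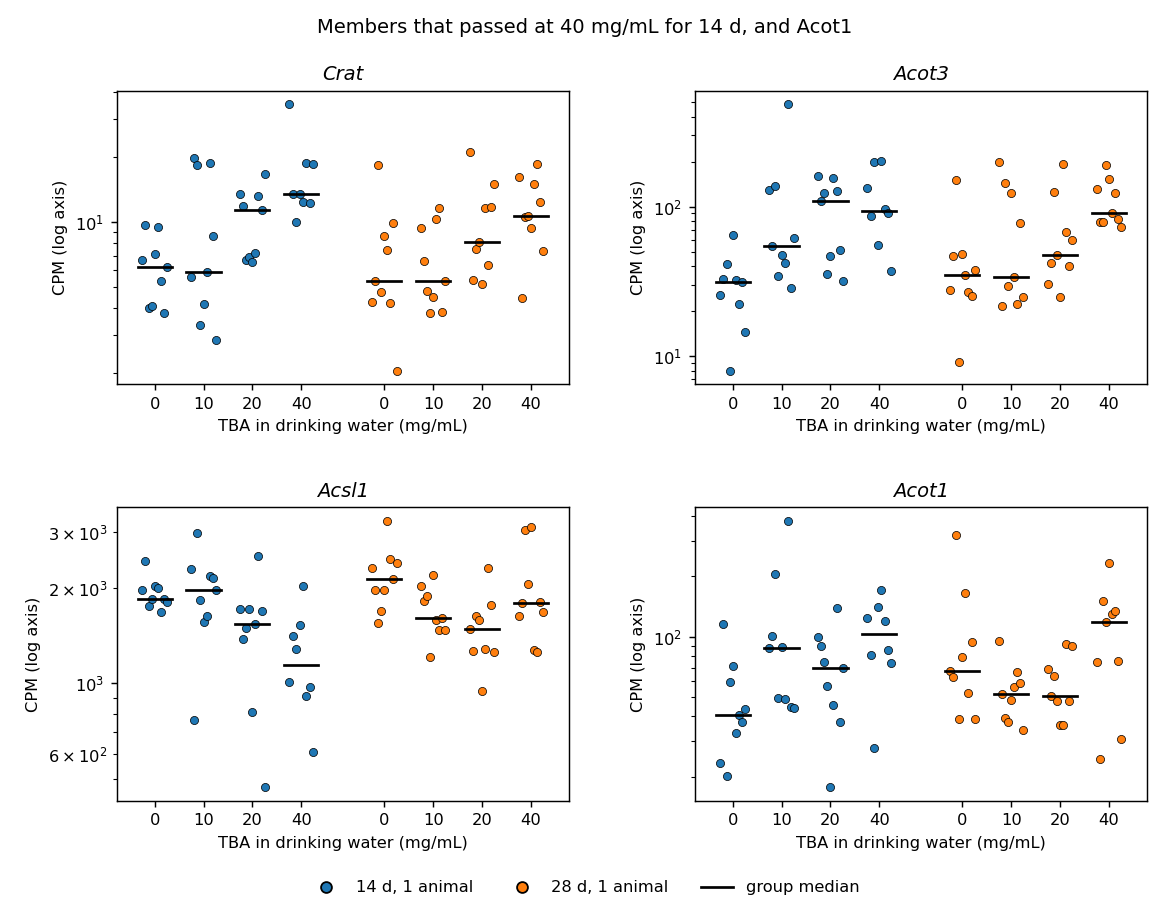
CPM on a log axis for each animal (point) in the 8 groups of TBA dose and duration, with the group median (line), for Crat, Acot3, Acsl1 and Acot1. At 40 mg/mL for 14 d all Crat points lie above the 14 d controls and 7 of 8 Acsl1 points lie below them, and the single high 28 d control in the Crat, Acot3 and Acot1 panels is replicate 3.

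The remaining 3 PPARA targets had wide spread. Pdk4, the kinase that shuts off pyruvate oxidation in fasting, had 0.127, 0.670 and 5.11 CPM in the 14 d controls and 0.675, 5.35 and 9.57 CPM at 40 mg/mL. Of the 8 dosed animals 4 lay above every control and the rest overlapped them. Its log2 fold change was 1.54 (95% interval 0.15 to 2.92, adjusted p = 0.197). Vnn1, a pantetheinase, was at 0.74, 1.10 and 0.19 over the 3 doses at 14 d. Angptl4, a secreted inhibitor of lipoprotein lipase, was at -0.32 at 40 mg/mL (28.9, 73.4 and 239 CPM against 47.0, 99.6 and 238 CPM).

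At 10 and 20 mg/mL for 14 d 0 of the 34 genes passed in edgeR, with 0% and 0.0352% of all features called. At an unadjusted p under 0.05 there were 8 genes higher and 1 lower at 10 mg/mL, against 2.63% and 1.68% of all features. At 20 mg/mL there were 5 higher and 1 lower, against 3.53% and 2.52%. DESeq2 and limma called 0 at 10 mg/mL and 1, Cd36, at 20 mg/mL. Over all features at 20 mg/mL they called 15 and 12 higher and 6 and 6 lower. The list's median log2 fold change at 10 mg/mL was 0.14, with 28 of 34 genes above 0, against 0.02 over all features, of which 53.0% were above 0. The 3 doses share 1 control group, so their values are not independent of each other.

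After 28 d 0 of the 34 genes passed at 10, 20 or 40 mg/mL in edgeR, with 0%, 0.158% and 0.00587% of all features called, nor in the trend (0.129%). At an unadjusted p under 0.05 there were 3 genes lower at 10 mg/mL and 7 lower at 20 mg/mL, against 2.22% and 8.23% of all features, and 4 higher at 40 mg/mL, against 3.42%. The trend had 5, against 7.89%. DESeq2 called 0, 1 and 0 genes and limma 0, 2 and 1. Over all features DESeq2 called 125 higher and 162 lower at 20 mg/mL. There limma called 176 and 339, and at 40 mg/mL it called 81 and 137. The list's medians were -0.11, -0.18 and -0.05 on the log2 scale, against values between -0.00 and 0.03 for all features.

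Acot3 had the largest value at 40 mg/mL for 28 d as well. Its levels were 9.09, 34.8 and 150 CPM in the 28 d controls and 72.8, 91.3 and 190 CPM at 40 mg/mL. The next highest control had 48.6 CPM, so all 9 dosed animals lay above 8 of 9 controls, and only control replicate 3 overlapped them. The share of all features with this pattern was not counted. The log2 fold change was 1.30 (SE 0.49, adjusted p = 0.582 in edgeR), and limma called it higher. With single libraries left out, control replicate 3 among them, edgeR called Acot3 in 0 of 18 fits (lowest adjusted p = 0.173). The second Acot3 probe, read in the same animals, was at 1.85, with 8 of 9 dosed animals above every control. The share of all features with that pattern was not counted either. Crat was at 0.68 (2.05, 5.33 and 18.4 CPM against 4.47, 10.7 and 18.7 CPM), where the highest control was again replicate 3. It too was called in 0 of 18 such edgeR fits (lowest adjusted p = 0.286). Pdk4 was at 1.06 and Vnn1 at 0.81, and Acsl1 at -0.16.

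At 20 mg/mL for 28 d Angptl4 had the most negative value of the list. Its levels were 26.5, 52.8 and 73.4 CPM against 34.2, 115 and 433 CPM in controls, a log2 fold change of -1.65 (95% interval -2.52 to -0.77, adjusted p = 0.074). The groups overlapped, with 3 of 9 dosed animals below every control. It passed in DESeq2 and limma, and in edgeR without control replicate 3 or without dosed replicate 7. Hadhb was at -0.45 (adjusted p = 0.125), Acsl1 at -0.55, Cpt2 at -0.37 and Acadl at -0.45, none of which passed in edgeR.

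**Figure D3:**
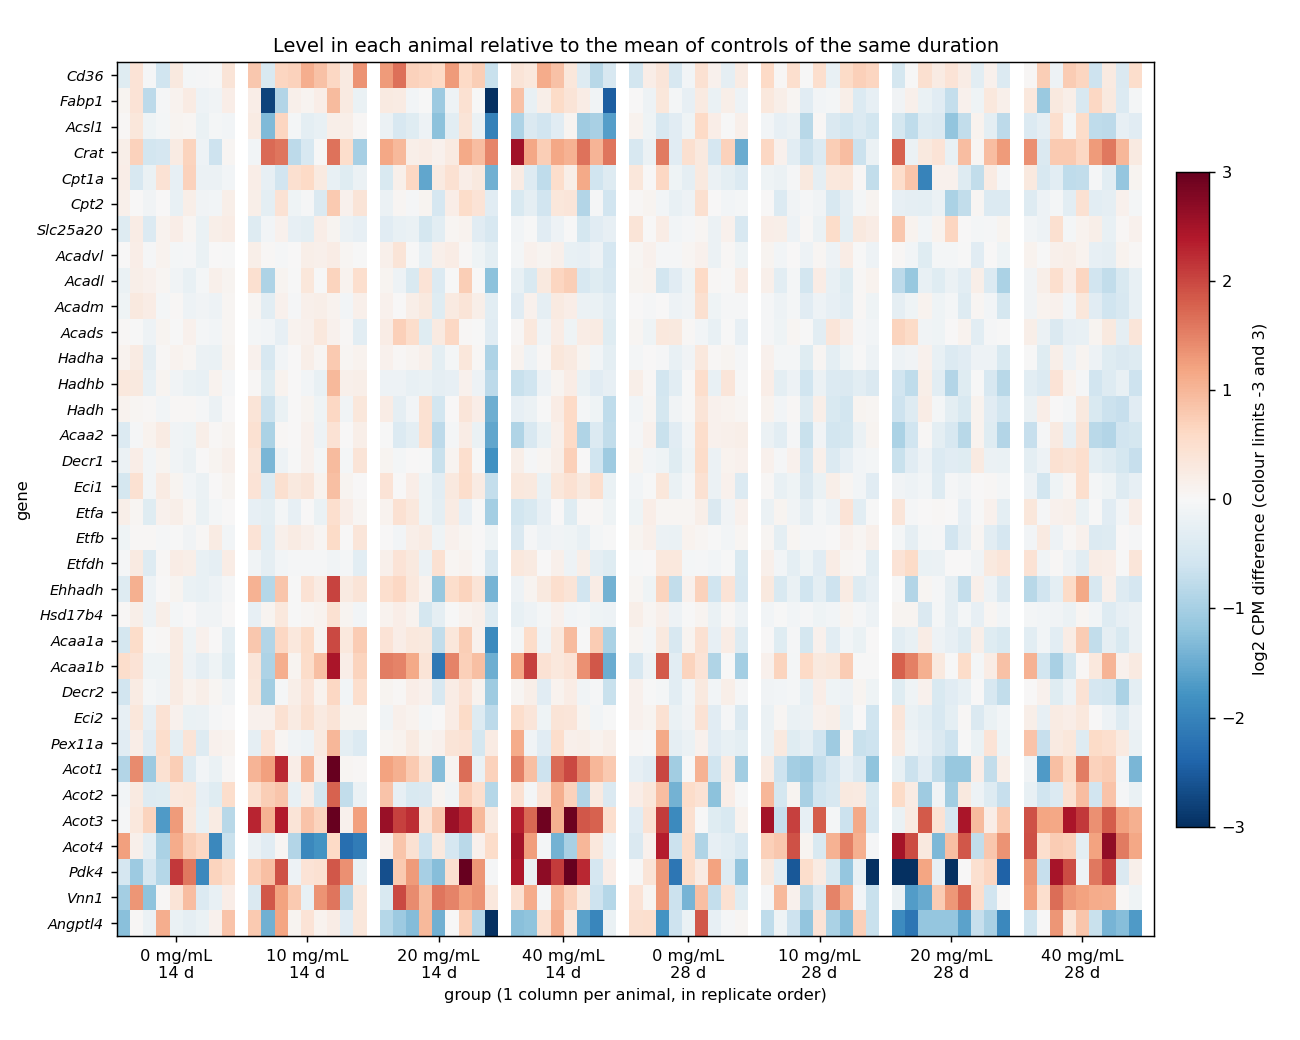
Log2 CPM of the 34 genes (rows) in 71 animals (columns) relative to the mean of controls of the same duration, with colour limits at -3 and 3. Crat and Acot3 are red in most animals at 40 mg/mL, while the rows of the mitochondrial spiral stay pale outside a few columns.

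The dose effects at 28 d were compared with those at 14 d in the same model. At 10, 20 and 40 mg/mL 0 genes of the list passed, with 0%, 0% and 0% of all features called. At an unadjusted p under 0.05 there were 7, 4 and 1 genes, against 4.29%, 3.15% and 6.34% of all features, and DESeq2 and limma called 0. Acot1 had the largest difference, at 10 mg/mL, where its effect at 28 d was lower than at 14 d by a log2 value of -2.15 (95% interval -3.30 to -1.01, adjusted p = 1). Crat's and Acot3's effects at 40 mg/mL differed by -0.74 (-1.68 to 0.21) and -0.59 (-1.98 to 0.79), so a lower effect at 28 d was not shown for either.

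The controls themselves bear on these differences. Between 28 d and 14 d controls 0 genes of the list passed (0% of all features; 4 at an unadjusted p under 0.05, all higher at 28 d, against 1.73% of all features; 0 in DESeq2 and limma), but 29 of 34 values lay above 0, as did 52.0% of all features. The list's median was 0.18, against 0.01 for all features. The Acot1 median was 40.5 CPM in the 14 d and 67.1 CPM in the 28 d controls, a log2 difference of 1.05 (adjusted p = 0.999). These controls enter both sides of each comparison between durations.

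Members differed widely in how much animals of 1 group varied. The pooled SD of log2 CPM within groups was 0.42 in the list's median and 0.54 over all features, whose mean levels are mostly lower. It was smallest for Acadvl (0.16), Hsd17b4 (0.16) and Etfb (0.18). It was largest for Pdk4 (1.37), Acot4 (1.00), Acot3 (0.99) and Angptl4 (0.94), followed by Vnn1, Acot1, Fabp1 and Acaa1b (0.85 to 0.86). Pdk4, Acot4 and Vnn1 were weakly counted, at means of 2.43, 2.52 and 3.28 CPM. Acot3, Acot1, Angptl4 and Fabp1 were not: their means were 81.0, 82.6, 107 and 4762 CPM.

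**Figure D4:**
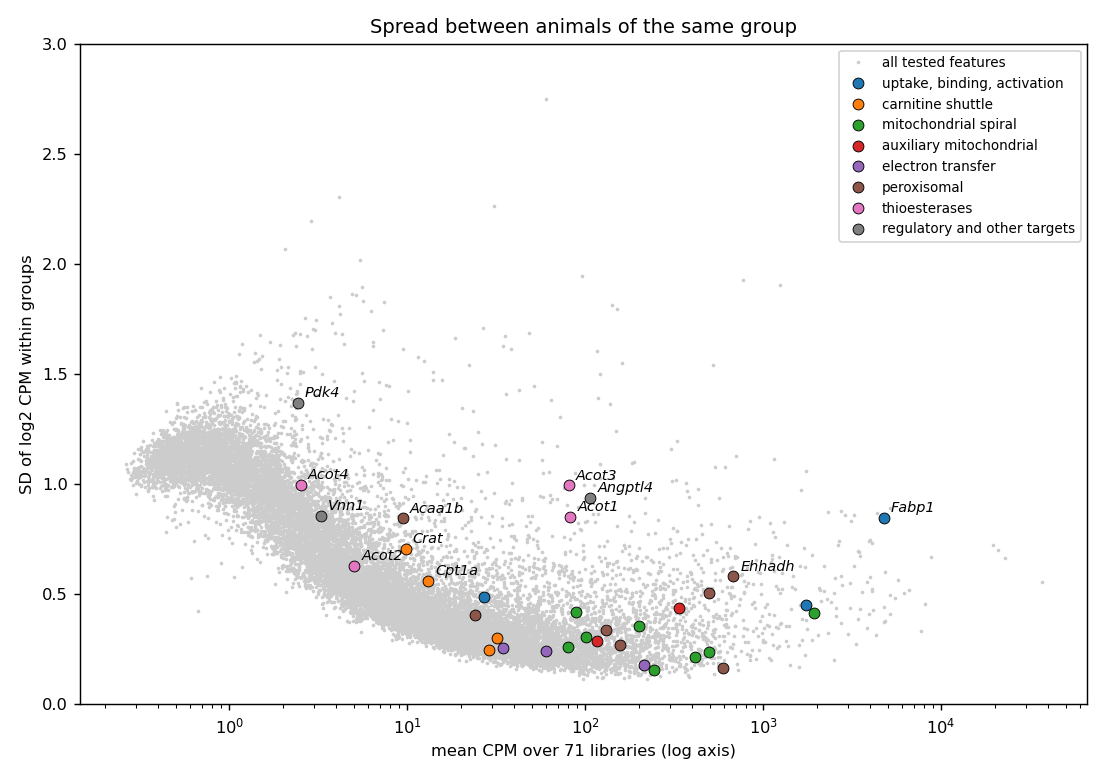
Pooled SD of log2 CPM within groups (vertical) against mean CPM over 71 libraries (horizontal, log axis) for all tested features (grey) and the 34 genes (coloured by role, named above an SD of 0.55). Fabp1, Acot3, Angptl4 and Acot1 lie above most features of their level, while the mitochondrial spiral lies at 0.16 to 0.42.

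Single animals carried many of the extremes. Replicate 7 at 10 mg/mL for 14 d was the highest of its group for 21 of the 34 genes, with Acot3 at 484 CPM, Acot1 at 379 CPM, Ehhadh at 2163 CPM and Fabp1 at 9044 CPM, and its scaling factor was 0.864. Replicate 9 at 20 mg/mL for 14 d was the lowest of its group for 20 genes, with Fabp1 at 144 CPM and Angptl4 at 7.05 CPM, and replicate 2 at 10 mg/mL for 14 d was the lowest for 18. Their scaling factors were both 1.26. Replicate 9 at 40 mg/mL for 14 d was the lowest for 15. Such animals occurred among controls too: replicate 2 of the 14 d controls was the highest for 17 genes, and replicates 6 and 3 of the 28 d controls for 16 and 13.

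**Figure D5:**
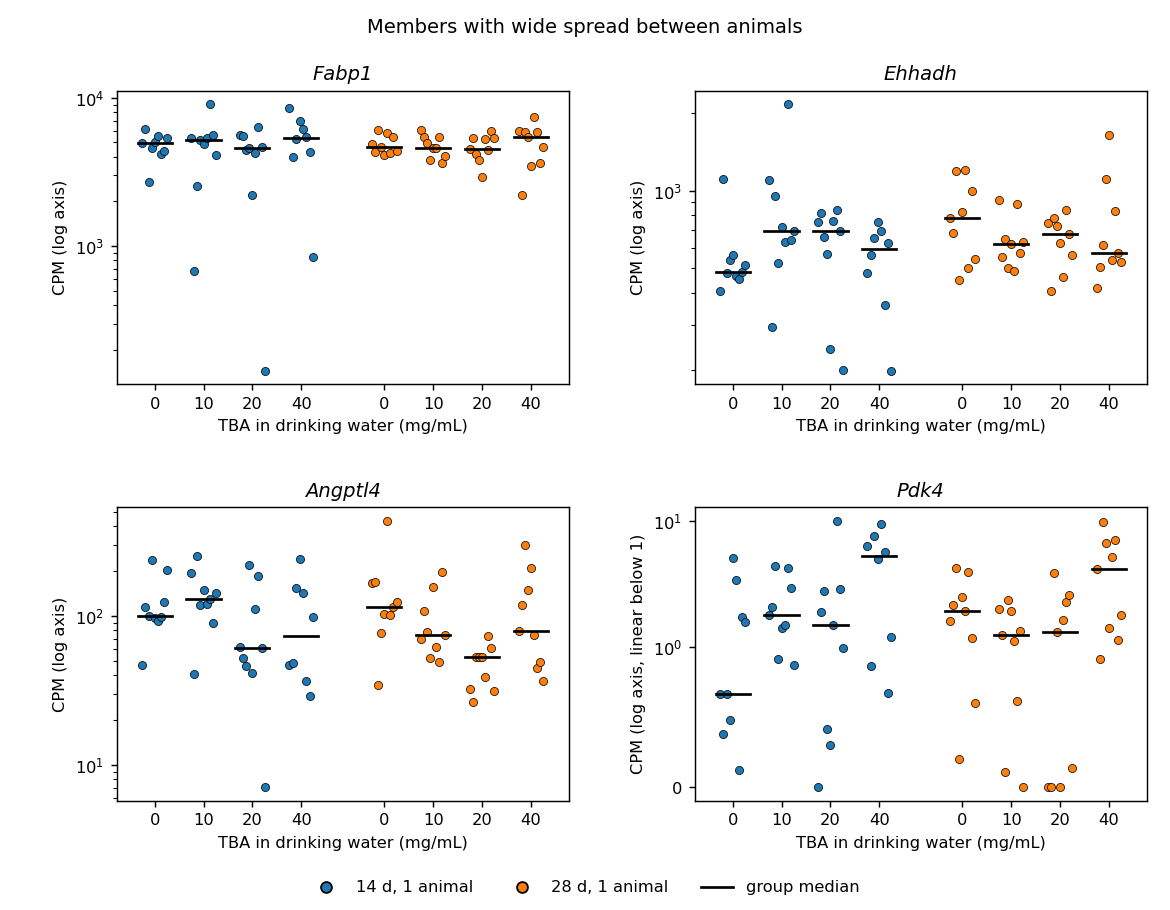
CPM on a log axis (linear below 1 for Pdk4) for each animal (point) with the group median (line) for Fabp1, Ehhadh, Angptl4 and Pdk4. Fabp1 medians stay between 4493 and 5451 CPM while 3 dosed animals at 14 d fall to 839 CPM or less.

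The calls were also read without the libraries of high scaling factors. With the 11 libraries of the highest factors left out, an alternative chosen after the data were seen, 0 of the 34 genes passed at 40 mg/mL for 14 d, which then had 4 animals. Over all features 150 were then called higher and 117 lower, against 484 and 627 in the main fit. With the 11 left out, the log2 fold changes were 1.13 for Crat, 2.04 for Acot3 and -0.49 for Acsl1. In that group the libraries left out, replicates 1, 2, 7 and 8, also had the lowest hepatocyte marker sums. These were 9828 to 13398 CPM, against 26408 to 45535 CPM in the 4 animals kept. The parts of scaling factor and hepatocyte RNA in the lost calls were not tested.

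Other genes of the pathway were counted from a separate list of 117, of which 107 were tested. At 40 mg/mL for 14 d 5 were higher, 7 lower and 95 did not pass (6.52% of all features called), and at 28 d 0 passed in edgeR (13 at an unadjusted p under 0.05, which 6.32% of all features had) and DESeq2, while limma called 3 lower. Over all features limma called 81 higher and 137 lower at 40 mg/mL for 28 d. At 14 d DESeq2 called 7 of the list higher and 11 lower, against 641 and 749 over all features. There limma called 5 and 5, against 185 and 511. With total counts only the 14 d split was 47 higher and 3 lower, against 6129 and 293. Without replicates 1 and 7 it was 1 and 0, against 112 and 161. None of 12 regulators passed at 40 mg/mL for 14 d in edgeR (4 at an unadjusted p under 0.05, which 19.0% of all features had). The 14 d trend in edgeR called 6 genes of this list higher and 10 lower, with 7.99% of all features called. Among the 12 regulators it called 1, Creb3l3, a liver transcription factor, lower (-0.13 per 10 mg/mL on the log2 scale, adjusted p = 0.0422), a share near that of all features. At 40 mg/mL for 14 d, Ppara itself was at -0.20 (adjusted p = 0.666) and its partner Rxra at -0.39 (0.0799). Among classical PPARA targets, Cyp4a10 and Cyp4a14, 2 fatty acid omega-hydroxylases, were at 0.24 and 0.82, neither of which passed. Cyp4a12a of the same family was lower in the 14 d trend in edgeR (-0.86 per 10 mg/mL on the log2 scale, adjusted p = 0.0300).

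Those that rose were led by Pdk1, a sister kinase of Pdk4, with 17.9, 25.1 and 33.9 CPM in controls and 31.8, 47.1 and 69.8 CPM at 40 mg/mL (log2 fold change 1.03, adjusted p = 0.000109), where 7 of 8 dosed animals lay above every control. Aldh3a2, the fatty aldehyde dehydrogenase, was at 0.69 (adjusted p = 0.0119). Those that fell included Slc27a5, the hepatic bile acid and very-long-chain acyl-CoA synthetase, at -1.04 (1054, 1227 and 1663 CPM in controls against 177, 529 and 1135 CPM, adjusted p = 0.0174), and Slc27a4 at -0.55. Apoa5, a plasma triglyceride regulator, was at -0.92, and Pccb and Mmut, of the propionate pathway, at -0.54 and -0.51 (adjusted p = 0.0106, 0.0373 and 0.0381). At 28 d Fgf21, a fasting hormone under PPARA control, had 0.305, 15.2 and 162 CPM at 40 mg/mL against 0.245, 3.66 and 8.32 CPM in controls, and 5 of 9 dosed animals lay above every control. Its log2 fold change of 2.95 (SE 0.76) did not pass over all features (adjusted p = 0.163).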

How the data were processed

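The authors deposited raw read counts per probe for 72 libraries. The tools named are bcl2fastq 2.20 and Bowtie, per the submitters' processing notes. The version of Bowtie, the counting tool, the genome build and the probe sequences are not given in the sources used here. Dose and duration in the labels gave the groups, and replicates are numbered in accession order. Batch, plate and pairing are not in the labels, and 1 animal gave 1 library. Of 2485 pairs of libraries 0 were identical, and the smallest chi-square per degree of freedom was 6.18, so none was counted as a repeat.

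Libraries under 100000 counts were left out (1 library), and filterByExpr, run on the 8 groups, kept 17050 features, among them 49 of the 50 listed probes and all 34 genes. The count test was edgeR 4.0.16 (R 4.3.3), a robust quasi-likelihood fit of 1 mean per group over 71 TMM-scaled libraries. The common biological coefficient of variation was 0.402. P-values were adjusted by Benjamini and Hochberg's method over all features of a comparison, with a threshold of 0.05. The probe with the highest mean stood for a gene. Log2 fold changes have model standard errors and 95% intervals, and log2 CPM used a prior count of 2. Compared were each dose with its control group, a linear dose trend, the difference of dose effects between durations, and 28 d against 14 d controls.

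By rule, full values were given for genes that passed in any of the 6 dose comparisons or the differences between durations and, in a role where none passed, for the gene with the smallest p at 40 mg/mL for 14 d. Of the other pathway genes, up to 2 per list with the smallest p in each comparison at 40 mg/mL were named. Some genes that this rule names are not reported here. Further genes given with values, among them Cd36, Acot1, Fabp1, Angptl4, Ppara, Cyp4a10, Cyp4a14 and Cyp4a12a, were chosen after their values were seen. The members and lists were chosen with earlier results of these data known. All 34 symbols matched the reference gene names. Promoters came from RefSeq (GRCm38.p6), and paralogs were compared on GENCODE M21 transcripts. The tests were tried on simulated counts. Alternatives were DESeq2 1.42.0, limma 3.58.1 with quality weights, edgeR without robust fitting, 3 other scalings, 2 other filters, the groups of a comparison alone, each library's log2 scaling factor in the model, the failed library kept, replicates 1 and 7 at 40 mg/mL for 14 d left out, probes summed per gene, each library left out in turn and, added after the data were seen, all 11 libraries of highest scaling factor left out together.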

Additional observations from a re-analysis of the deposited data

Results flagged for a closer look

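Of 272 pairs of a gene and a group, 28 pairs in 21 genes had 1 animal whose gap to the nearest other animal, as a share of the group's range, was above the 95% critical value of Dixon's test. Chance flags about 1 in 20 groups, or 13.6 of 272 pairs, and genes measured in the same library are not independent. At 14 d, 11 of the 28 lay in 1 animal at 10 mg/mL and 1 at 20 mg/mL.

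Replicate 2 at 10 mg/mL for 14 d was set apart as the lowest of its group for 6 genes: Fabp1 at 677 CPM, Acsl1 at 767 CPM, Acaa2 at 1056 CPM, Decr1 at 124 CPM, Decr2 at 58.4 CPM and Acadl at 44.0 CPM. Replicate 9 at 20 mg/mL for 14 d was set apart as the lowest for 5 genes: Fabp1 at 144 CPM, where the next animal had 2203 CPM, Hadha at 259.5 CPM, Hadhb at 62.2 CPM, Cd36 at 11.0 CPM and Angptl4 at 7.05 CPM. Both libraries had a scaling factor of 1.26.

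The other dosed animals set apart at 14 d were Pex11a at 15.2 CPM in replicate 8 at 20 mg/mL, Hadhb at 209.7 CPM in replicate 7 at 10 mg/mL (the highest), and at 40 mg/mL Fabp1 at 839 CPM in replicate 9, Acot1 at 28.0 CPM in replicate 3 and Hsd17b4 at 661 CPM in replicate 4 (the highest). Among the 14 d controls they were Decr2 at 80.9 CPM in replicate 1, Ehhadh at 1108 CPM in replicate 2 (the highest), Fabp1 at 2723 CPM in replicate 3 and Etfb at 241 CPM in replicate 8 (the highest). Fabp1 had such a low animal in all 4 groups at 14 d and in none of the 4 at 28 d; this difference was not tested.

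Among the 28 d controls, replicate 3 was the highest for Acot4 at 6.37 CPM and Pex11a at 52.1 CPM, replicate 6 the highest for Acadm at 616 CPM and Cpt2 at 48.9 CPM, and replicate 7 the lowest for Etfa at 26.1 CPM. The remaining animals, each the lowest of its group at 28 d, were Etfb at 182 CPM in replicate 2 and Eci2 at 106 CPM in replicate 9 at 10 mg/mL, and Eci1 at 92.97 CPM in replicate 4 at 20 mg/mL.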

How the results depend on the processing

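No paired analysis was possible because the labels give no replicate numbers that groups share. At 40 mg/mL for 14 d, where 2 genes were called higher and 1 lower, edgeR without robust fitting, DESeq2 size factors, scaling without the 20 most abundant features and probes summed per gene gave the same counts, and DESeq2 and the 5 CPM filter called 3 higher (adding Acaa1b) and 1 lower. Genes called higher numbered 21 with total counts only, 1 with each library's log2 scaling factor as a covariate (Acadl, with Crat and Acot3 lost), 1 with the failed library kept (Crat), and 0 both without replicates 1 and 7 and without the 11 libraries of the highest scaling factors. Genes called lower numbered 0 in limma, with total counts only, with no filter, with the groups of the comparison alone, with the covariate, with the failed library kept and in both sets of libraries left out. Over all features, leaving out replicates 1 and 7 gave 112 calls higher and 161 lower at 40 mg/mL for 14 d. Leaving out the 11 libraries gave 150 and 117. In the 14 d trend, genes called higher numbered 22 with total counts only, 1 with no filter, with the groups alone, with the covariate and with the failed library kept, and 0 in both sets of libraries left out. Genes called lower there numbered 0 with total counts only, with the covariate, with the failed library kept and in both sets.

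At 20 mg/mL for 14 d, DESeq2, limma, total counts only, the covariate and leaving out those 11 libraries each called 1 gene higher (Cd36). At 20 mg/mL for 28 d, DESeq2, the 5 CPM filter and that last alternative called 1 gene lower and limma 2. At 28 d limma called 1 gene higher at 40 mg/mL and 2 in the trend. Leaving out each library in turn gave 2 to 3 genes higher and 0 to 1 lower at 40 mg/mL for 14 d, 1 to 3 higher and 0 to 1 lower in the 14 d trend, 0 to 1 higher at 20 mg/mL for 14 d, and 0 to 1 higher and 0 to 2 lower at 20 mg/mL for 28 d.

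Over 15 of the genes and the 6 dose comparisons, 25 of 90 log2 fold changes took both signs as single libraries were left out and 23 changed sign under another alternative; 0 of either had passed. Among them were Fabp1 at 40 mg/mL, from -0.02 to 0.28 at 14 d and -0.07 to 0.12 at 28 d, Ehhadh at 40 mg/mL for 14 d, from -0.13 to 0.15, Cd36 at 20 mg/mL for 28 d, from -0.04 to 0.09, and Pdk4 at 20 mg/mL for 14 d, from -0.23 to 1.00, all without single libraries. At 10 mg/mL, Hadhb at 14 d (-0.03 to 0.17), Etfa at 14 d (-0.10 to 0.01) and Acaa1b at 28 d (-0.06 to 0.47) also took both signs. At 20 mg/mL Etfa did so at 14 d (-0.09 to 0.07) and 28 d (-0.06 to 0.03). Listed next are reversals at 40 mg/mL among genes named by rule and, at every dose, among Crat, Acot3 and Acsl1. Acsl1 at 10 mg/mL for 14 d (0.00) ran from -0.10 to 0.11 without single libraries and read -0.00214 in DESeq2, -0.00215 with its size factors, -0.00384 without the 20 most abundant features, -0.000804 with the groups alone, -0.000321 with the failed library, -0.0113 with the 5 CPM filter and -0.0153 with probes summed. Crat at 10 mg/mL for 28 d (-0.11) read 0.0833 in limma and 0.22 without libraries of high factor, and -0.24 to 0.21 without single libraries. Acaa1b at 40 mg/mL for 28 d (-0.05) read 0.11 in limma, 0.0565 with total counts only and 0.19 without libraries of high factor, and -0.20 to 0.37 without single libraries. With total counts only Hadhb and Etfa at 40 mg/mL for 14 d read 0.21 and 0.26 and Eci1 at 28 d 0.0356. With the covariate Hadhb at 14 d read 0.12 and Acsl1 at 28 d 0.0264. Etfa at 28 d ran from -0.0208 to 0.0714 without single libraries. The cause was not tested. Pdk4, Acot4 and Vnn1 had mean levels under 5 CPM, and the part of depth in their spread was not tested.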
